A study of Rattus norvegicus with 2 samples.

Results

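Transcripts of 10 circadian clock genes were examined in the hypothalamus of spontaneously hypertensive rats (SHR), an inbred line whose blood pressure climbs as the animals grow up. The genes were taken by name: Per1, Per2, Per3, Cry1, Cry2, Clock, Npas2, Nr1d1, Nr1d2 and Dbp. All 10 were found among the 16579 genes with a symbol on the array, on 14 probes. The male group was 1 RNA pool and the female group was 1 RNA pool, each holding 100 ng of RNA per rat from 5 SHR aged 9 weeks with no treatment named in the labels. Both groups thus shared the hypertensive strain, and no rats of a normotensive strain were part of this comparison. The labels describe ether inhalation before decapitation and a dissected block holding the hypothalamus, and they state no hour of collection and no stage of the oestrous cycle. Each pool was measured on 1 single-colour array, so there were no replicates and no test was run; every difference describes these 2 pools, and the animals' own spread cannot be seen.

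The clock is a feedback loop of transcription. CLOCK, or its relative NPAS2, pairs with BMAL1 and switches on genes through E-box motifs, among them those for the PER and CRY proteins, which then block the pair. A second loop runs through the nuclear receptors REV-ERB alpha and beta, encoded by Nr1d1 and Nr1d2, which repress Bmal1 and other genes through a motif called RRE, and Dbp encodes an output factor that acts through D-boxes. In rodent tissues the E-box and D-box genes (here Per1, Per2, Per3, Nr1d1, Nr1d2 and Dbp) and the RRE genes (here Clock, Npas2 and Cry1, with Bmal1 beside them) peak at roughly opposite times of day, whereas Cry2 cycles weakly and was put in neither group. The grouping is coarse, since Clock itself cycles little in some tissues and Cry1 is under both kinds of control. The suprachiasmatic nucleus of the hypothalamus holds the central pacemaker, and the other nuclei in such a block have clocks of their own timing. The comparison therefore asked whether the 2 groups of genes differed in opposite directions between the pools. Samples of different circadian phase can show this pattern but need not.

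Some of the promoters hold the motifs after which these groups are named. RefSeq windows of assembly GRCr8, from 250 bases before to 50 bases after a gene's start, were found for 9 of the 10 genes; Cry1 had no entry. Those of Per2 and Bmal1 are shown because these 2 genes had the lowest differences of their groups, and the second window of Nr1d1 because it holds the only E-box found in a window of the 10 genes. Each is the part before the start, read 5′ to 3′ on the gene's strand, and capitals mark the matched motif.
Per2, chr9:99496994-99497243, minus strand, capitals mark a D-box and then an E-prime box: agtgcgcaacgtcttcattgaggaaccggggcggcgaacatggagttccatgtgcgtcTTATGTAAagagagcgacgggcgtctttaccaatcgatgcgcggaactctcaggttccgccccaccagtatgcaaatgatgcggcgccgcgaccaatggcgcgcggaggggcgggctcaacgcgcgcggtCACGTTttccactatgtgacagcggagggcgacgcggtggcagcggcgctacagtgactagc
Bmal1, chr1:176766078-176766327, plus strand, capitals mark an RRE core: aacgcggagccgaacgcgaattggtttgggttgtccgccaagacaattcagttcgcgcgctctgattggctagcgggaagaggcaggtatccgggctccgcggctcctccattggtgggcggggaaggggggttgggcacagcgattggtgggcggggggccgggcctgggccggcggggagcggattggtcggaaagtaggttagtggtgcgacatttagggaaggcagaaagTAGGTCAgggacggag
Nr1d1, chr10:84229455-84229704, minus strand, capitals mark an E-box: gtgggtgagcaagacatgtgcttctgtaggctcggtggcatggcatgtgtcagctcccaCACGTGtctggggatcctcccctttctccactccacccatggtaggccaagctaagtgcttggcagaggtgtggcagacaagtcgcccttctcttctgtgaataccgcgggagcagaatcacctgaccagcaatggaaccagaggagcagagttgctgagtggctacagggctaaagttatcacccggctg

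The motifs were searched on both strands of the whole windows, and no matches overlapped in the 3 windows shown. The E-box CACGTG was in 6.42% of all 33469 promoter windows, and the E-prime box CACGTT in 4.83%. The D-box, searched as TTATGTAA or TTACGTAA, was in 1.01%, the RRE core TAGGTCA in 2.63% and the cyclic AMP response element TGACGTCA in 1.83%. Among the 10 genes, the E-box was found for Nr1d1, the E-prime box for Per2, Cry2 and the first window of Nr1d1, and the D-box for Per2. In Per2 the E-prime box lay 62 to 57 bases before the start and the D-box 192 to 185 bases before it. In Bmal1 the RRE core lay 16 to 10 bases before the start. The RRE core and the cyclic AMP response element were in none of the windows of the 10 genes, which says only that these letters are not in these windows. No array value bears on binding at these motifs.

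All 10 genes were well above background on both arrays, on every one of their 14 probes. None was at least 2-fold apart between the pools, against 1.76% of the 24140 genes and unnamed transcripts that both arrays measured well above background. None was at least 25% apart on its brightest probe, against 9.21% of all genes. Differences are given as male minus female log2 signal, scaled to each array's 75th percentile, so a negative value is lower in the male pool. They ran from -0.30 for Per2 to 0.11 for Dbp, with a median of -0.03 beside -0.02 for all genes. Of the 10 genes, 4 leaned to the male pool and 6 to the female pool, and 45.0% of all genes were higher in the male pool. With median centring the 10 genes split 3 to 7, and over the alternatives the share of all genes ran from 34.3% with median centring to 53.5% with normexp background correction and 54.6% with no filter on dim probes. The yardstick for noise was a technical SD for a difference on 1 spot. It added the variances of repeat spots of the same probe within each array, without pairing spots at the same position. This SD was 0.072 for probes above the 75th percentile and 0.20 for probes at log2 signals of -6 to -4. It covers printing and scanning only. For a probe printed on several spots it was divided by the root of their number, which brought it to 0.023 for the 10 spots of Dbp. By that measure Per2 and Dbp were at least 2 technical SD apart, 2 of the 10 genes against 12.0% of all genes.

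The arrays had similar quality. Of 58717 spots for rat transcripts, 71.6% of the male array and 73.0% of the female array stood well above background, and the 75th percentile of signal was 2203 and 2254 units over a median local background of 33 units. No spot was saturated, and both arrays lay on 1 slide scanned at 1 time. Of measured spots 11.1% lay in a patch, by a rule on how many neighbouring spots differ widely in 1 direction. None of the spots of the 10 genes lay in one. Whether widely differing spots cluster more than scattered ones would was not tested. With 1 array per pool, precision is limited by their number. Of 12 hypothalamic marker genes 11 were well above background on both arrays, among them those for oxytocin, vasopressin and melanin-concentrating hormone, and Nr5a1 was not. In a block of bulk tissue, fewer cells of a type and less RNA per cell cannot be told apart.

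**Figure D1:**
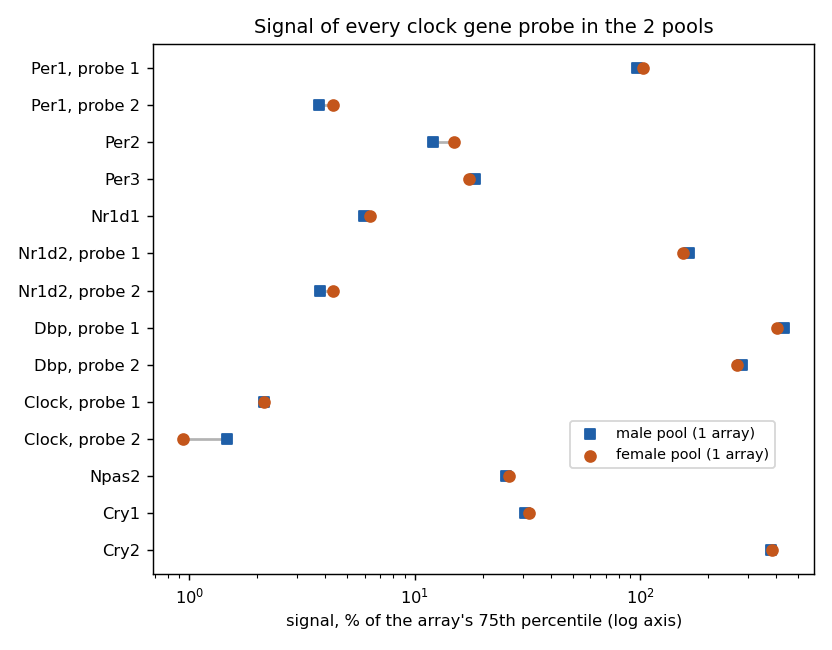
Signal of each of the 14 clock gene probes in the male pool (squares) and the female pool (circles), in percent of the array's 75th percentile on a log axis, 1 array per pool. The 2 marks of a probe lie close together from the dim Clock probes to the bright Dbp probes, and the dim second probe of Clock is the pair set widest apart.

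The Per genes encode repressors of the loop, and they went both ways. The Per2 level was 12.0% of the 75th percentile (male pool) and 14.8% (female pool), a fold of 1.23 lower in the male pool (log2 difference -0.30, technical SD 0.12, measured on 1 spot). This was the largest difference among the brightest probes of the 10 genes as scaled here. With normexp background correction of the spot medians it was -0.12, and Per3 at 0.13 and Dbp at 0.12 were further from 0. In its signal range, log2 -4 to -2, 7.65% of genes were at least as far from 0, and 5% lay below -0.25. Per1, which is also induced quickly by light and by cell stimulation, was at 96.2% (male pool) and 103% (female pool) on its brighter probe. Its difference of -0.10 was 1.15 technical SD. Its dimmer probe, designed on another transcript record, gave 3.77% and 4.35%, a difference of -0.21 with a technical SD of 0.20. Both Per1 probes were thus lower in the male pool, by about their technical SD. Per3, whose product is thought to play a smaller part in the loop, was at 18.4% and 17.3%, a difference of 0.09 that was 0.77 technical SD.

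The Cry genes encode the partners of the PER proteins and differed little. Cry1 was at 30.8% (male pool) and 32.0% (female pool) of the 75th percentile, a difference of -0.05 with a technical SD of 0.086. Cry2 was at 378% and 383%, a difference of -0.02 with a technical SD of 0.072. Both were within 1 technical SD of 0. Of genes in the same signal range, 59.7% were at least as far from 0 as Cry1 and 80.1% as Cry2.

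The activators Clock and Npas2 were also close between the pools, except on 1 dim probe of Clock. The brighter Clock probe was dim, at 2.14% in both pools, with a difference of 0.00 and a technical SD of 0.20. The second Clock probe was dimmer still, at 1.47% (male pool) and 0.937% (female pool), a fold of 1.56 higher in the male pool (log2 difference 0.65, technical SD 0.46). The second probe was thus 1.39 technical SD from 0, by a yardstick that rests on 6 repeat probes below a log2 signal of -6. The difference of Clock is not settled by these arrays. Npas2, the relative of Clock that is prominent in the forebrain, was at 25.3% and 26.1%, a difference of -0.05 with a technical SD of 0.086. Bmal1, their shared partner and not among the 10 genes, was at 35.4% (male pool) and 42.2% (female pool), a fold of 1.19 lower in the male pool (-0.25, 2.96 technical SD, 1 probe on 1 spot). In its signal range 3.68% of genes were at least as far from 0.

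The nuclear receptor genes of the second loop were within their noise. Nr1d1, which encodes REV-ERB alpha, was at 5.95% (male pool) and 6.35% (female pool), a difference of -0.09 with a technical SD of 0.20. Nr1d2, which encodes REV-ERB beta, was at 165% and 155% on its brighter probe, a difference of 0.09 that was 1.19 technical SD. Its dimmer probe went the other way, at 3.79% and 4.32%, a difference of -0.19 with a technical SD of 0.20. The probes of Nr1d2 thus differed in sign, and neither was 2 technical SD from 0.

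Dbp, the output factor, had the steadiest measurement, because its main probe was printed on 10 spots. The 10 spots had signals of 414% at the lowest, 430% at the median and 466% at the highest on the male array. On the female array they had 387%, 399% and 444%. The ranges overlapped between pools, but all 10 spots were higher in the male pool when each was compared with the same position on the other array, by 0.06 to 0.17. Their mean difference was 0.11, with an SD of 0.037 between spots, and the second probe gave 0.09, at 283% and 267%. These spots repeat the measurement of the same 2 pools and are not replicates of the sexes. Of genes in this signal range, 16.4% were at least as far from 0.

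**Figure D2:**
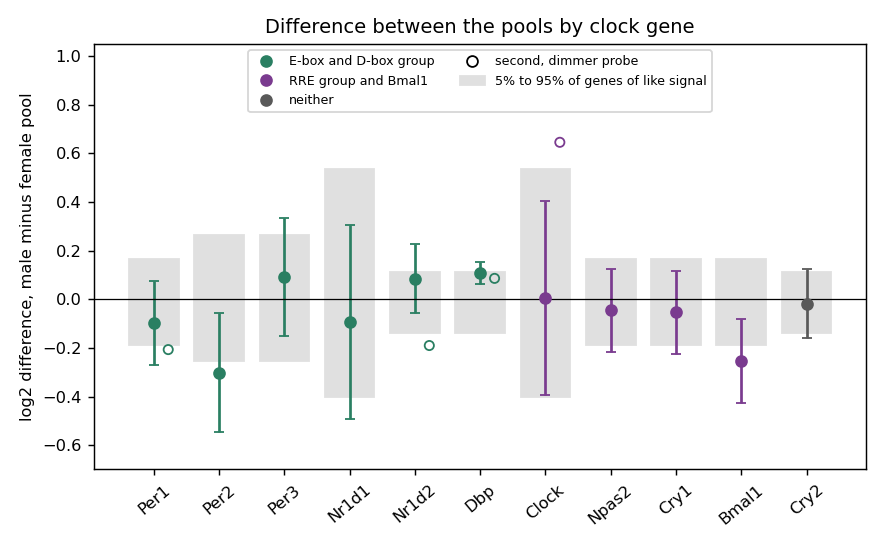
Log2 difference, male minus female pool, for the brightest probe of each of the 10 genes and Bmal1 (filled points, with bars of 2 technical SD either way) and for second probes (open points). Grey boxes span 5% to 95% of all genes in the same signal range; the main probes of 9 of the 10 genes lie inside their boxes, Per2 lies just below its box, and so does Bmal1.

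The main probes of the 10 genes stood in the same order on both arrays, from Clock at percentile 46.6 of all probes (male) and 46.9 (female) to Dbp at 96.7 and 96.5. Brightness also depends on the probe's own sequence, so this order is not an order of transcript amounts. The largest shift of a main probe was that of Per2, from percentile 69.7 in the female pool to 67.4 in the male pool, or 2.38 points. The median shift of all probes well above background on both arrays was 0.588 points. The dim second probe of Clock shifted by 4.74 points, the most among the 14 probes.

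**Figure D3:**
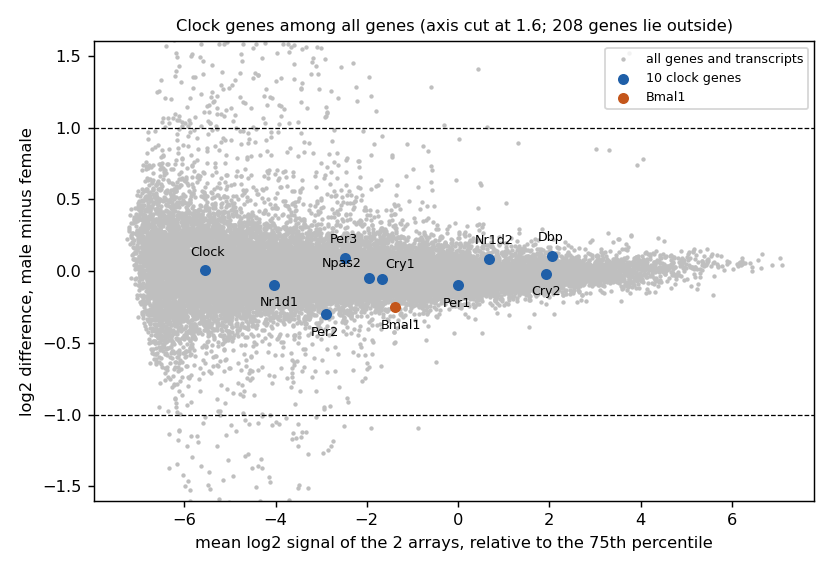
Log2 difference, male minus female pool, against the mean log2 signal of both arrays for 24140 genes and transcripts (grey), with the 10 clock genes in blue and Bmal1 in orange; dashed lines mark 2-fold. The clock genes lie from -0.30 to 0.11 within the cloud of all genes, which widens towards low signals; 208 genes beyond 1.6 are not drawn.

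The differences of the 2 groups of genes overlapped, and with 1 array per pool the phase of the pools has no test. Of the 6 E-box and D-box genes, Per3, Nr1d2 and Dbp were higher and Per1, Per2 and Nr1d1 lower in the male pool. Their median was 0.00. Of the 3 RRE genes, 1 was higher and 2 were lower, with a median of -0.05; with median centring or quantile normalization all 3 were lower. The first median exceeded the second by 0.04, and by 0.05 with Bmal1 counted among the RRE genes. Taking the mean over a gene's probes turned both values, to -0.03 and -0.02. Per2 and Bmal1, which peak at nearly opposite times in most tissues, had the lowest differences of these 11 genes, so both were lower in the male pool.

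Ratios of 2 genes on the same array do not depend on a scaling factor of the array. Of the 24 ratios between an E-box or D-box gene and Clock, Npas2, Cry1 or Bmal1, 14 were positive and 10 negative, from -0.31 for Per2 over Clock to 0.36 for Dbp over Bmal1. Each gene enters several ratios, so they are not independent. The 3 ratios at least 25% apart all had Bmal1 below: Dbp over Bmal1 was 1.29-fold higher in the male pool, Per3 over Bmal1 1.27-fold and Nr1d2 over Bmal1 1.26-fold. They were 4.08, 2.33 and 3.03 technical SD from 0, and the other 21 ratios were under 2 technical SD. With the mean over probes 6 ratios were at least 25% apart, and Nr1d2 over Bmal1 was at 0.20. Per2 over Bmal1 was close to 0, at -0.05 (0.10 with normexp). How far these genes swing over a day in this tissue was not measured here, so these ratios were not converted into hours.

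**Figure D4:**
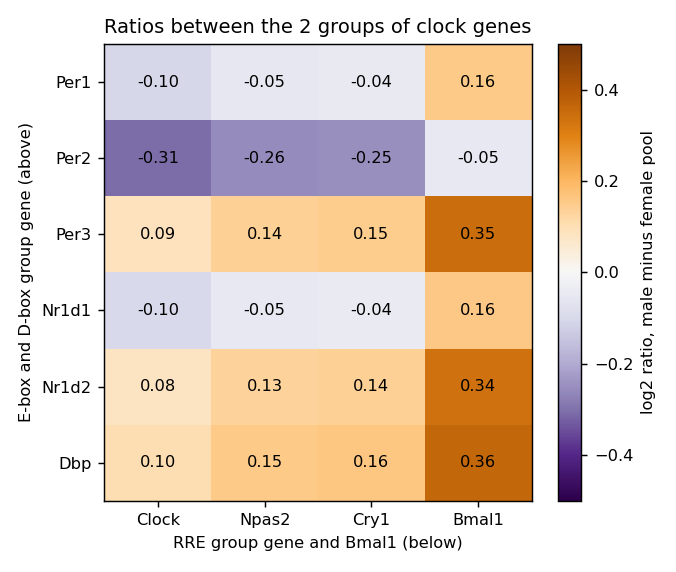
Log2 ratio of each E-box or D-box gene (rows) over each RRE gene or Bmal1 (columns), male minus female pool; orange is higher and purple lower in the male pool. The column of Bmal1 holds the highest values, up to 0.36 for Dbp, and the row of Per2 is negative in every column.

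Other genes of the clock were read from lists of 45 genes, of which 38 were on the array by symbol and 35 gave usable signal on each array. In the male pool 12 of these 35 were higher and 23 lower (7 and 28 with median centring), and their median was -0.06 beside -0.02 for all genes. Of all genes 45.0% were higher in the male pool, and 34.3% with median centring. Differences of at least 25% were found for 2 genes higher in the male pool, against 5.39% of all genes, and for 2 lower, against 3.82%. Rorb, a receptor gene of the family that activates through RRE, was at 11.2% and 10.8%, a difference of 0.04. Bmal2 was not well above background on both arrays.

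Tef, which encodes a D-box factor related to Dbp, was at 287% (male pool) and 311% (female pool), a difference of -0.11 at 1 probe with a technical SD of 0.072. Dbp and Tef thus had differences of opposite sign. Bhlhe40, a repressor that competes at E-boxes, was at -0.01. Ciart, a further repressor of the loop, was too dim to count on either array. Among kinases, ligases and other genes for the stability of PER and CRY proteins, 3 were higher and 7 lower (median -0.05; 1 and 9 with median centring). Beside this, 45.0% of all genes were higher, and 34.3% with median centring. Csnk1d, the casein kinase gene whose product phosphorylates PER, was at 663% and 737%, a difference of -0.15, and its dimmer probe was also lower. Fbxl21, a ligase gene for CRY, was dim and at -0.21 with a technical SD of 0.46.

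Among cofactors 3 had a positive and 6 a negative difference (median -0.06; 2 and 7 with median centring). Hdac3, the deacetylase gene through which REV-ERB represses, was at 46.6% (male pool) and 32.3% (female pool), a difference of 0.53, but its only spot lay in a patch. Among output targets 4 were higher and 7 lower (median -0.09; 3 and 8 with median centring). For both lists the share of all genes higher in the male pool was 45.0%, and 34.3% with median centring. Fkbp5, a chaperone gene induced by glucocorticoids, was at 55.6% and 72.5%, a difference of -0.38 with a technical SD of 0.086. Pdk4, a kinase gene of fuel choice, was at 0.74, and the oxygenase gene Fmo2 at -0.58. Both were dim, with a technical SD of 0.46, and with normexp they were at 0.35 and -0.08.

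Genes that share inputs with the Per genes were read beside them. Of 14 immediate early genes, which like Per1 respond to cell stimulation, the 13 well above background on both arrays all had more signal in the male pool, and 12 of the 13 did with median centring or quantile normalization. Their median was 0.27 beside -0.02 for all genes, and 6 were at least 25% higher, against 5.39% of all genes (45.0% were higher by any amount). Among the 6 was Fosl2 at 1.37, from 1 spot in a patch. Its dimmer probes, with a technical SD of 0.46, gave 0.26 and 0.17. Jun and Ier2 also had spots in patches. Without spots in patches all 13 were higher, with a median of 0.26. Per1 was lower in the male pool on both probes. Of 10 genes induced by glucocorticoids, as Per1 and Per2 also can be, 5 were higher and 5 lower (median 0.00), and the split ran from 4 and 6 to 6 and 4 with other scalings. Zbtb16 at -0.66 and Fkbp5 at -0.38 were the 2 at least 25% lower, against 3.82% of all genes, and 0 were at least 25% higher. Without spots in patches 8 were left, 5 higher and 3 lower (median 0.08). Among markers of the suprachiasmatic nucleus 5 had a positive and 4 a negative difference (median 0.04). Vip, a peptide gene of its core, was at 0.13, and Prok2 and Six6 were not well above background on both arrays.

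Markers of cell types also differed between the pools. Beside each count by direction below, 45.0% of all genes were higher in the male pool, and 34.3% with median centring. For the 11 measured hypothalamic markers 8 differences were negative and 3 positive (median -0.17), and 3 of them were at least 25% lower in the male pool, against 3.82% of all genes. These 3 were Hmx3 at -0.49, Sim1 at -0.39 and the orexin gene Hcrt at -0.32. Hmx3 was dim, with a technical SD of 0.46. A second Sim1 probe, not well above background on either array, was at 0.27. Lower by less than 25% were, among others, Gnrh1 at -0.32, the transcription factor gene Nkx2-1 at -0.27 and Pmch, the gene for melanin-concentrating hormone, at -0.17. The 3 higher were Pomc at 0.24, Agrp at 0.17 and the vasopressin gene Avp at 0.14. The summed level of the 11 markers was 9110% (male pool) and 9391% (female pool) of the 75th percentile. Most of it came from Pmch (4522% and 5079%), Avp (3103% and 2813%) and the oxytocin gene Oxt (1055% and 1076%). The sums thus say little about the other markers. All 10 meningeal fibroblast markers were higher in the male pool, with levels (in percent of the 75th percentile) that summed to 569.6% there and 234.5% in the female pool, and all 5 red blood cell markers were higher, at 2357% and 1369%. All 5 oligodendrocyte and all 4 astrocyte markers were higher, with medians of 0.11 and 0.18, but 4 and 3 were with quantile normalization or with the mean over probes, and 5 and 3 with median centring. Of the 4 measured choroid plexus markers 3 were higher and 1 was lower, at 107% and 96.5%. Of the 5 measured pituitary markers 4 were higher and 1 was lower, at 287% and 183%. Of 5 neuron markers 1 was higher and 4 lower, with a median of -0.03 and summed levels of 1426% and 1517%. Without the pituitary marker Cga, whose spot lay in a patch, the pituitary sums were 202% and 162%. Most of these sums came from Pomc, at 178% and 151%, which is also counted among the hypothalamic markers. Leaving out markers with any spot in a patch likewise gave sums of 399% and 162% for 7 meningeal markers, 179% and 101% for 4 red blood cell markers, and 192% and 194% for 2 neuron markers. The 2 choroid plexus markers left summed to 16.9% and 14.1%. Leaving out only the spots in patches gave 4 choroid plexus markers higher and 0 lower. Kcnj13, Prl and Gh1 were the markers in these lists not well above background on both arrays. The part of hypothalamic and other tissue composition in the differences of Per2, Bmal1 and Dbp was not tested.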

How the data were processed

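Per the file headers, the authors' array files hold the processed spot intensity of Agilent Feature Extraction 11.5.1.1 (protocol GE1_1105_Oct12, design build rn4), background-subtracted and not scaled between arrays; the submitters' processing notes name version 9.1. The deposited value table equalled that intensity in percent of the 75th percentile, on a linear scale (largest gap 0.050% for values over 1). Rat transcript spots that either array flagged as outliers (664) were dropped. Log2 signals were set relative to the 75th percentile of all rat transcript spots, and repeat spots were averaged. Probes were named by RefSeq accession through a GRCr8 gene table (21106 of 45591 probes), and a gene took its brightest probe; a probe with repeat spots needed over 50% of them flagged as well above background. Technical SD came from probes with at least 8 spots and was divided by the root of the spot number. Named genes were the 10 members, Bmal1 and, from each list of other clock genes, those at least 25% apart or otherwise the 2 furthest apart; marker genes were named after their values were seen. Members and lists were chosen with earlier results of these data known. Steps were tested on simulated arrays, where 200 of 200 changed probes were recovered. Normexp used limma 3.58.1, other steps Python 3.11.15. Alternatives were the background correction, scaling, probe rule, dim filter, patches and deposited table. A patch spot has at least 2 of its 18 nearest measured neighbours at least 2-fold apart in 1 direction.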

Additional observations from a re-analysis of the deposited data

How the results depend on the processing

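The differences of the 10 genes and of the named other clock genes, their counts and medians, and the ratios were recomputed under 8 alternatives: normexp background correction with an offset of 50, median centring, quantile normalization, the 75th percentile over spots well above background on both arrays, the mean over probes, no filter on dim probes, no spots in patches, and the deposited table. The number of the 10 genes at least 2-fold apart was 0 under all of them. The number at least 25% apart went from 0 to 1 with median centring, where Per2 was at -0.34, and to 1 with the mean over probes, where Clock was at 0.32. With the mean over probes Nr1d2 was at -0.05. With normexp, which changed both the signal column and the correction, Per2 was at -0.12, Fmo2 at -0.08 and the second probe of Clock at 0.14, and 1 gene was at least 2 technical SD apart in place of 2; the cause was not tested. The ratios at least 25% apart went from 3 to 6 with the mean over probes and to 2 with normexp. The ratios and the count by technical SD were added after seeing the data. Rank shifts and levels were not recomputed. Of the 10 genes 8 kept 1 sign under all settings, and Clock and Nr1d2 did not; Rorb, Bhlhe40 and Fbxl21 also changed sign. Bmal1 ran from -0.29 to -0.22 and Dbp from 0.07 to 0.12. Hdac3 has 7 of the 8 alternatives, with no value without spots in patches. Normexp used spot medians in place of the planned spot means, a choice made after seeing the files. No paired analysis was possible because each sex had 1 pool and the result comes from no test. Low signal limits Clock, Fbxl21, Fmo2 and Pdk4 most.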

Other observations

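Among the 10 genes, the gap between the probes of 1 gene was widest for Clock. Over 2720 genes with at least 2 probes well above background on both arrays, the differences of the 2 brightest probes lay a median of 0.086 apart, and 5% of genes had a gap over 0.50. The gap was 0.64 for Clock, which 11.7% of the 239 genes with as dim a second probe reached. It was 0.28 for Nr1d2, reached by 23.0% of 842 genes, 0.11 for Per1, reached by 60.9%, and 0.02 for Dbp, reached by 63.5% of 326 genes. The median difference of the 18 spots around each member's main spot lay between -0.04 and 0.04, with -0.04 around Per2 and -0.02 around Bmal1, whose own differences were -0.30 and -0.25.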
